A study of Homo sapiens with 4 samples.

Results

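The genes described here are 45 genes of G2/M and the mitotic spindle, the machinery that takes a cell into mitosis, separates its chromosomes and splits it. They were chosen by name, with earlier results of these data known, and matched by NCBI Gene ID. Their counts beside the share of all genes are therefore a description and not a test of the set. They are 45 of 18882 gene IDs with reads in any library and 45 of the 14298 genes tested after the filter on low counts. RNA was sequenced from BT-474 cells, an established human breast cancer line of luminal B-like type in which ERBB2 is amplified, with wild-type control cells as replicates 1 and 2 and cells that overexpress NRP-1 as replicates 2 and 3, 1 library each. The NRP-1 cells carried neuropilin-1 on a stably transfected pPTuner IRES2 plasmid, were isolated as colonies and were selected with Geneticin. The controls are labelled wild-type and not empty vector, so the transgene, the antibiotic selection and the isolation of colonies cannot be told apart, and the sources used here state neither whether the NRP-1 replicates came from 1 colony or several nor whether replicates were separate cultures. The p-values therefore measure the spread between these samples, which may be technical.

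Entry into mitosis rests on cyclin B bound to the kinase CDK1, which CDC25 phosphatases switch on and which Polo-like and Aurora kinases reinforce. Kinetochores then tie chromosomes to spindle microtubules, a checkpoint holds separation back until all are attached, and the anaphase-promoting complex (APC/C) with its activator CDC20 destroys cyclin B and securin. RNA of these genes is low in G1, rises late in the cycle under FOXM1 and the B-MYB and MuvB complex, and is widely read as a measure of proliferation in breast tumours.

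The libraries held between 8243595 and 8448926 expected reads. NRP1 itself had 7 and 8 reads in the controls, 103 in NRP-1 replicate 2 and 62 in NRP-1 replicate 3, and both NRP-1 libraries stood far above both controls (log2 fold change 3.38, SE 0.42, adjusted p = 0.044, Benjamini-Hochberg adjustment of edgeR's quasi-likelihood test, the method of every adjusted p here unless another is named). With no filter on low counts the same test gave NRP1 an adjusted p = 0.106. The NRP-1 libraries differed much more from each other than the controls did, with a common biological coefficient of variation of 0.225 against 0.064, so each NRP-1 library was also set against the 2 controls on its own. Those 2 comparisons share the controls and take their spread from them, and a lone NRP-1 library is assumed to vary as the controls do. All 12 luminal and HER2 markers were at 1 FPKM (reads scaled to transcript length and library size) or more in every library. Of the other markers, 0 of 6 basal, 0 of 5 endothelial, 1 of 8 fibroblast (COL1A1) and 2 of 6 leukocyte genes (CD68 and LYZ) reached that level in every library. The defining leukocyte marker PTPRC lay between 0.73 and 1.38 FPKM, and the summed leukocyte markers were at 68.4 and 60.6 FPKM in the controls and 48.9 and 51.1 in the NRP-1 libraries. Within that sum CD68 went from 20.8 and 18.1 FPKM in the controls to 6.84 and 5.86 in NRP-1 replicates 2 and 3 (log2 fold change -1.67, SE 0.19, adjusted p = 0.0423), while LYZ gave -0.08 (SE 0.13, adjusted p = 0.762). The part of these markers in the results was not tested.

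All 45 genes were at their highest in NRP-1 replicate 3. In that library 45 of 45 were called higher than the controls (adjusted p under 0.05, highest 5.77e-04), where 19.7% of all genes tested were called higher, and their median log2 fold change was 1.71, a median fold of 3.28, against 0.00 over all genes. NRP-1 replicate 2 showed a smaller and less even difference: 31 of 45 were called higher (background 13.9%) and 0 lower (background 15.1%), the median was 0.62, a fold of 1.53, against -0.01 over all genes, and single genes ran from -0.34 to 1.92. Replicate 3 was called higher than replicate 2 in 44 of 45 genes by the same test (background 12.2%), with a median of 1.13. GAS2L3 was higher too but did not pass (log2 difference 0.62, SE 0.35, adjusted p = 0.212). The test of replicate 3 against replicate 2 compares 2 libraries and not conditions. The counts depend on the fit, which leaves 1 residual degree of freedom. Under limma on FPKM none of the 45 was called in either library, and fewer were called under DESeq2 or with no filter on low counts. The share of all genes called under these alternatives was not counted. The medians in replicates 2 and 3 were 0.62 and 1.71 under DESeq2, and 0.59 and 1.66 under limma with a pseudocount of 1. NRP1 did not follow the same order, with a log2 difference between replicates 3 and 2 of -0.73 (SE 0.37, adjusted p = 0.154).

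With the 2 libraries of each group set against each other, 0 of 45 genes passed (background 0.413% called higher), although 36 had an unadjusted p under 0.05 (background 22.9%) and the median log2 fold change was 1.22, ranging from 0.45 to 2.26, against 0.02 over all genes. Adjusted p-values lay between 0.068 and 0.579. DESeq2 on the same counts called 32 of 45 higher, against 2.8% of all genes. An exact permutation test of 2 libraries against 2 cannot go below p = 0.333. The median over the 45 genes was 1.70 when replicate 3 was the only NRP-1 library kept, and 0.62 when replicate 2 was. Those fits use the same libraries as the comparisons of single NRP-1 libraries above, so they add no separate evidence. With both NRP-1 libraries kept, the median was 1.14 when control replicate 1 was dropped and 1.43 when control replicate 2 was. Since RNA was taken from whole cultures, a larger share of cells in G2 or mitosis and more of these RNAs per cell cannot be told apart.

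The order of the libraries was nearly the same for all of these genes. Control replicate 2 lay above control replicate 1 in 45 of 45, against 50.3% of all genes, with a median log2 ratio of 0.33 and a range from 0.03 to 1.36 in CPM, the reads of a gene scaled to library size. NRP-1 replicate 2 lay above both controls in 39 of 45 (41.7% of all genes), between them in CDK1, NDC80, NUSAP1 and CDC25C, and below both in AURKB and CENPA. NRP-1 replicate 3 lay above both controls in 45 of 45 (43.5%). Both NRP-1 libraries exceeded both controls in 39 of 45 (27.9%), and those 39 followed the full order of control 1, control 2, NRP-1 replicate 2 and NRP-1 replicate 3, against 9.91% of all genes. Taken as the median over the 45 genes of the log2 CPM deviation from each gene's mean, the level was -0.75 and -0.43 in the controls, 0.03 in NRP-1 replicate 2 and 1.20 in NRP-1 replicate 3. The step between the NRP-1 libraries was thus larger than the step from the controls to NRP-1 replicate 2.

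**Figure D1:**
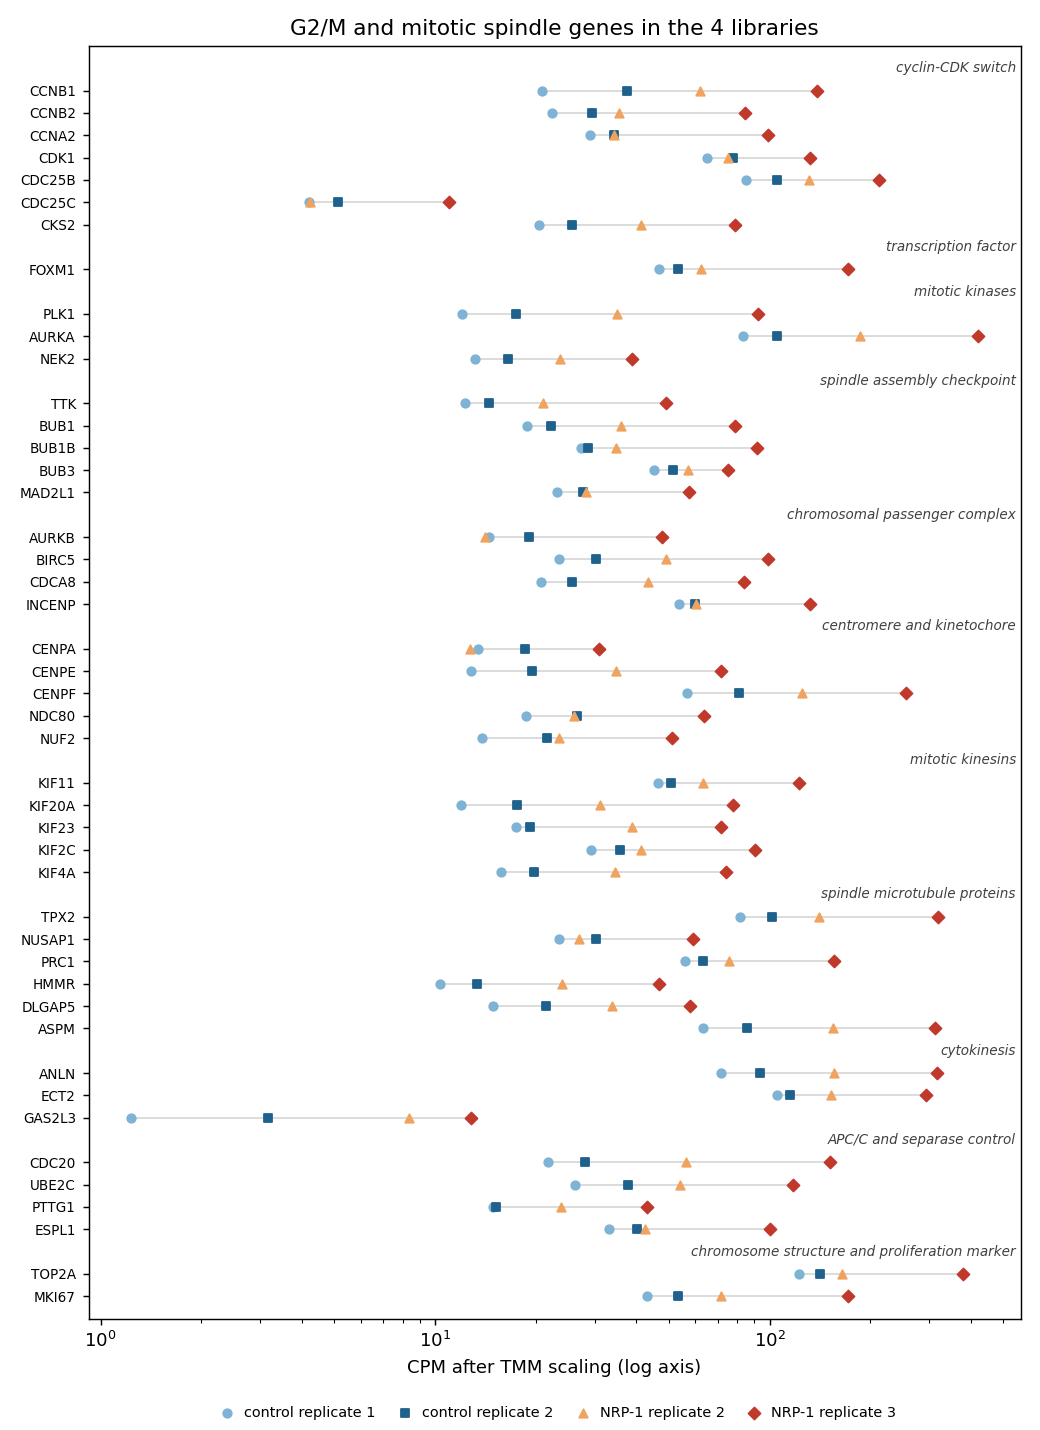
CPM after TMM scaling (horizontal log axis) of each of the 45 genes, grouped by role, with 1 point per library. The 45 red diamonds of NRP-1 replicate 3 lie furthest right in their rows, control replicate 2 lies right of control replicate 1 throughout, and NRP-1 replicate 2 falls below both controls for AURKB and CENPA.

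Promoters were examined because genes that peak in G2 and mitosis often carry CCAAT boxes, bound by NF-Y, and a cell cycle homology region (CHR), bound by the MuvB complexes, close to the start of transcription. RefSeq windows of GRCh38.p14, from 250 bases before to 50 bases after the start, were at hand for 38 of the 45 genes. Both strands were searched for CCAAT, for the CHR letters TTTGAA or TTCGAA, for the E2F letters TTTCCCGC, TTTCGCGC, TTTGCCGC or TTTGGCGC, and for the GC box GGGCGG, none of which can match within another, although neighbouring matches can share bases. CHR letters were found in 27 of 38 windows (71.1%), against 11.2% of the 11225 windows of genes tested and 2 of 39 windows (5.13%) of a list of G1/S and DNA replication genes. CCAAT was found in 29 (76.3%), against 36.7% and 53.8%, and both together in 23 (60.5%), against 4.66% and 5.13%. E2F letters stood in 7.89% of the windows here, 46.2% of the G1/S windows and 5.18% of all, and the GC box differed little, at 73.7%, 74.4% and 68.4%. The 36 CHR matches had a median position 28 bases before the start, and 22 of 38 windows (57.9%, against 3.22% of all) had one within 50 bases of it. The 65 CCAAT matches had a median position 71 bases before the start. A match is a run of letters and not a measured binding site.

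The 150 bases before the start are given for genes that differ in response, with CCAAT and CHR letters of either strand in capitals and each read 5′ to 3′ along the gene. PLK1 and CDC20 had the largest rises in NRP-1 replicate 3 and CCNB2 rose moderately. CENPA had the lowest log2 fold change in NRP-1 replicate 2, and all 4 genes hold both kinds of letters. CCNB1 holds CCAAT and no CHR letters, and GAS2L3, the gene with the largest rise in NRP-1 replicate 2, holds neither.
PLK1, chr16:23678739-23678888, plus strand: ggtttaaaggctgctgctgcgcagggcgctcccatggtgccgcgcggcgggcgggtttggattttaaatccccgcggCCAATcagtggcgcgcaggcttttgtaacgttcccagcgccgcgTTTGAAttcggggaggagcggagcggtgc
CDC20, chr1:43358831-43358980, plus strand: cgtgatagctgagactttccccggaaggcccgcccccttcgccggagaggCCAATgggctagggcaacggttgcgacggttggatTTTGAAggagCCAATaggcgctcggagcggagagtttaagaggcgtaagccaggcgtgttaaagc
CCNB2, chr15:59104996-59105145, plus strand: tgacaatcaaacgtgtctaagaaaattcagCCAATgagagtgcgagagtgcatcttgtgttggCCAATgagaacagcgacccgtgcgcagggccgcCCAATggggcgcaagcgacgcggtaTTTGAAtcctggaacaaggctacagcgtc
CENPA, chr2:26785906-26786055, plus strand: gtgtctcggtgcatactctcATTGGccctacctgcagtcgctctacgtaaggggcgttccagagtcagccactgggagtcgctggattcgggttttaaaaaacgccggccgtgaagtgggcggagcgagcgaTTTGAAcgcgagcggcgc
CCNB1, chr5:69167000-69167149, plus strand: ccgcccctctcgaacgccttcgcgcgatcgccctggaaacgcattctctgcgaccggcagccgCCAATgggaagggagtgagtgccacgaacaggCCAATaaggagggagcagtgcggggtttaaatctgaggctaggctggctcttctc
GAS2L3, chr12:100593468-100593617, plus strand: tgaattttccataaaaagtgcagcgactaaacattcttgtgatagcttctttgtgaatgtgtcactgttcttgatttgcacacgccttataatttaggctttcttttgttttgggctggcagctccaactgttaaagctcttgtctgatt

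The ranges of the genes with and without CHR letters overlapped. In NRP-1 replicate 2 the median log2 fold change was 0.47 for the 27 genes with CHR letters, from -0.34 to 1.25, and 0.66 for the 11 without, from -0.25 to 1.92. In NRP-1 replicate 3 the medians were 1.71 and 1.52. No test was run on these subsets. A single window per gene was searched, and only for the letters TTTGAA or TTCGAA. Genes without these letters are therefore not shown to lack a CHR.

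Of the 7 genes of the cyclin and CDK switch, 4 were called higher in NRP-1 replicate 2, namely CCNB1, CCNB2, CDC25B and CKS2, and 7 in replicate 3. CCNB1, cyclin B1, had 170 and 307 reads in the controls, 525 in NRP-1 replicate 2 and 1183 in NRP-1 replicate 3. It rose with log2 fold changes of 1.08 (SE 0.13, adjusted p = 1.53e-15) in replicate 2 and 2.25 (SE 0.12, adjusted p = 8.71e-80) in replicate 3, while control replicate 2 lay above control replicate 1 by 0.83 on the same scale. CDK1, its kinase partner, had 526 and 640 reads in the controls, 637 in NRP-1 replicate 2 and 1122 in NRP-1 replicate 3, so replicate 2 lay between the controls. Its log2 fold changes were 0.07 (SE 0.11, adjusted p = 0.696) in replicate 2 and 0.88 (SE 0.10, adjusted p = 7.47e-16) in replicate 3, the second smallest of the 45 in replicate 3. CCNA2, cyclin A2, which acts from S phase to early mitosis, had 236 and 281 reads in the controls, 292 in NRP-1 replicate 2 and 841 in NRP-1 replicate 3. Of the NRP-1 libraries, replicate 3 was called higher there, with 1.64 (adjusted p = 1.54e-36) against 0.12 (adjusted p = 0.596) in replicate 2, and the log2 difference between the NRP-1 libraries was 1.52 (SE 0.15). Both CDC25 phosphatases remove inhibitory phosphates from CDK1. CDC25B had 690 and 865 reads in the controls, 1119 in NRP-1 replicate 2 and 1813 in NRP-1 replicate 3, above both controls in both libraries, while CDC25C had only 34 and 42 reads in the controls, 36 in NRP-1 replicate 2 and 94 in NRP-1 replicate 3, and at that depth its value of -0.14 in replicate 2 carried a standard error of 0.38. CKS2, a small CDK-binding subunit, rose by 0.84 and 1.78 in replicates 2 and 3.

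FOXM1, the transcription factor that drives many of the other genes here, had 380 and 439 reads in the controls, 530 in NRP-1 replicate 2 and 1462 in NRP-1 replicate 3. Replicate 2 exceeded the controls slightly and replicate 3 by a wide margin, with log2 fold changes of 0.31 (SE 0.12, adjusted p = 0.0299) in replicate 2 and 1.78 (SE 0.10, adjusted p = 3.05e-61) in replicate 3. Of the 45 genes it had the third largest difference between the NRP-1 libraries, 1.46 (SE 0.12), after AURKB and CCNA2.

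The mitotic kinases PLK1, AURKA and NEK2 were called higher in both NRP-1 libraries. PLK1, which acts on centrosomes, kinetochores and cytokinesis, had 98 and 143 reads in the controls, 298 in NRP-1 replicate 2 and 788 in NRP-1 replicate 3. Its log2 fold changes were 1.25 (SE 0.16, adjusted p = 9.71e-13) in replicate 2 and 2.65 (SE 0.14, adjusted p = 4.38e-71) in replicate 3, the largest of the 45 in replicate 3. AURKA, the kinase of spindle poles, had 676 and 864.5 reads in the controls, 1588 in NRP-1 replicate 2 and 3578.8 in NRP-1 replicate 3. It rose by 0.99 (SE 0.10, adjusted p = 1.16e-20) in replicate 2 and 2.16 (SE 0.10, adjusted p = 1.02e-107) in replicate 3. On the per-length scale AURKA was the most abundant of the 45 in every library, at 36.0, 45.9, 84.3 and 186 FPKM in the same order. NEK2, which separates centrosomes, rose less, by 0.67 and 1.39.

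In the spindle assembly checkpoint, the kinases TTK and BUB1 were called higher in NRP-1 replicate 2 and BUB1B, BUB3 and MAD2L1 were not. BUB1, which marks centromeres, had 153 and 182 reads in the controls, 305 in NRP-1 replicate 2 and 669 in NRP-1 replicate 3, and rose by 0.81 (SE 0.16, adjusted p = 3.98e-06) in replicate 2 and 1.94 (SE 0.14, adjusted p = 6.59e-40) in replicate 3. MAD2L1, which binds and restrains CDC20, had 188 and 227 reads in the controls, 241 in NRP-1 replicate 2 and 490 in NRP-1 replicate 3. Replicate 2 barely exceeded the higher control there, with a log2 fold change of 0.16 (adjusted p = 0.517), and replicate 3 rose by 1.18 (adjusted p = 4.74e-14). BUB3, another protein of the checkpoint, had 366 and 422 reads in the controls, 486 in NRP-1 replicate 2 and 639 in NRP-1 replicate 3. Its rise of 0.64 (SE 0.12) in replicate 3 was the smallest of the 45, while BUB1B rose by 1.71 and TTK by 1.87.

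The chromosomal passenger complex joins the kinase AURKB to INCENP, BIRC5 (survivin) and CDCA8 (borealin), and only BIRC5 and CDCA8 of these 4 were called higher in NRP-1 replicate 2. AURKB had 118 and 157 reads in the controls, 120 in NRP-1 replicate 2 and 407 in NRP-1 replicate 3. Scaled to library size, replicate 2 lay just below the lower control (log2 fold change -0.25, SE 0.20, adjusted p = 0.384), whereas replicate 3 rose by 1.51 (SE 0.17, adjusted p = 4.71e-17). The difference of 1.76 (SE 0.21) between these libraries was the largest of the 45. BIRC5 had 191 and 249 reads in the controls, 416 in NRP-1 replicate 2 and 841 in NRP-1 replicate 3, and rose by 0.86 (SE 0.14, adjusted p = 1.25e-08) in replicate 2 and 1.87 (SE 0.13, adjusted p = 1.60e-46) in replicate 3. CDCA8 rose by 0.90 and 1.85, and INCENP by 1.22 in replicate 3, with 0.08 (adjusted p = 0.664) in replicate 2. Differences between subunits were not tested.

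Of the 5 centromere and kinetochore genes, 2 were called higher in NRP-1 replicate 2 and 5 in replicate 3. CENPE, a kinesin that carries chromosomes to the spindle equator, and CENPF, a large protein of the outer kinetochore, were the 2 called in both NRP-1 libraries. CENPE had 104 and 160 reads in the controls, 296 in NRP-1 replicate 2 and 609 in NRP-1 replicate 3, with log2 fold changes of 1.11 (SE 0.17, adjusted p = 6.27e-10) in replicate 2 and 2.15 (SE 0.15, adjusted p = 2.37e-43) in replicate 3. CENPA, the histone H3 variant that marks the centromere, had 109 and 153 reads in the controls, 108 in NRP-1 replicate 2 and 264 in NRP-1 replicate 3. Its value in replicate 2 was the lowest of the 45, at -0.34 (SE 0.22, adjusted p = 0.264), and it rose by 0.95 (adjusted p = 6.24e-06) in replicate 3. NDC80 and NUF2, which together bind microtubules, gave 0.21 and 0.40 in replicate 2 without passing (adjusted p = 0.391 and 0.0803) and rose by 1.49 and 1.53 in replicate 3.

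Of the 5 mitotic kinesins, the motors that build and divide the spindle, 4 were called higher in NRP-1 replicate 2 and 5 in replicate 3. KIF20A, a motor of the central spindle, had 97 and 144 reads in the controls, 264 in NRP-1 replicate 2 and 661 in NRP-1 replicate 3. It rose by 1.07 (SE 0.17, adjusted p = 6.73e-09) in replicate 2 and 2.39 (SE 0.15, adjusted p = 1.80e-53) in replicate 3. KIF23, part of the centralspindlin complex of cytokinesis, had 142 and 158 reads in the controls, 330 in NRP-1 replicate 2 and 609 in NRP-1 replicate 3, so its controls lay close together, and both NRP-1 libraries exceeded them with 1.08 (adjusted p = 3.26e-10) and 1.96 (adjusted p = 2.63e-38). It had the lowest adjusted p of the 45 in the comparison of 2 against 2 libraries, 0.068. KIF11, which pushes spindle poles apart, rose by 0.38 and 1.34, and KIF4A by 0.96 and 2.07. KIF2C, which takes microtubules apart, missed the threshold in replicate 2 (0.34, adjusted p = 0.0506) and rose by 1.47 in replicate 3. KIF4A has a near-identical copy, KIF4B, which had 0.82 reads in control replicate 1 and 0 elsewhere.

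Spindle microtubule proteins were called higher in 5 of 6 cases in NRP-1 replicate 2 and in 6 of 6 in replicate 3. ASPM, which focuses spindle poles, had 515 and 702 reads in the controls, 1312 in NRP-1 replicate 2 and 2657 in NRP-1 replicate 3, with log2 fold changes of 1.05 (SE 0.10, adjusted p = 1.16e-22) in replicate 2 and 2.07 (SE 0.10, adjusted p = 2.26e-96) in replicate 3. TPX2, the activator of AURKA, had 660 and 838 reads in the controls, 1195 in NRP-1 replicate 2 and 2719 in NRP-1 replicate 3, and rose by 0.62 (adjusted p = 3.49e-08) and 1.80 (adjusted p = 2.15e-75). HMMR rose by 1.01 and 1.98, DLGAP5 by 0.90 and 1.67, and PRC1, which bundles the central spindle, by 0.35 and 1.38. NUSAP1, which binds microtubules near chromosomes, was the exception, with 190 and 248 reads in the controls, 229 in NRP-1 replicate 2 and 502 in NRP-1 replicate 3. Its log2 fold change was 0.01 (SE 0.16, adjusted p = 0.982) in replicate 2 and 1.14 (adjusted p = 2.08e-13) in replicate 3.

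The cytokinesis genes ANLN, ECT2 and GAS2L3 were called higher in both NRP-1 libraries. ANLN, the anillin scaffold of the contractile ring, had 580 and 769 reads in the controls, 1327 in NRP-1 replicate 2 and 2691 in NRP-1 replicate 3, and rose by 0.92 (SE 0.10, adjusted p = 1.27e-17) in replicate 2 and 1.94 (SE 0.10, adjusted p = 6.02e-86) in replicate 3. ECT2, which activates RhoA at the cleavage site, rose by 0.47 and 1.42. GAS2L3, which links actin to microtubules late in division, was the least abundant of the 45 in the controls, at 0.52, 1.34, 3.61 and 5.51 FPKM, with 10 and 26 reads in the controls, 71 in NRP-1 replicate 2 and 109 in NRP-1 replicate 3. The controls differed by 1.36 on the log2 scale, the widest gap of the 45, and the log2 fold changes were 1.92 (SE 0.37, adjusted p = 2.51e-06) in replicate 2 and 2.53 (SE 0.34, adjusted p = 4.36e-12) in replicate 3. The study lists GAS2L3 among genes it found changed in these same libraries, so it is not independent evidence of a direction.

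Of the genes that control the APC/C and separase, CDC20, UBE2C and PTTG1 were called higher in NRP-1 replicate 2 and all 4 in replicate 3. CDC20, the APC/C activator that the checkpoint restrains, had 177 and 230 reads in the controls, 480 in NRP-1 replicate 2 and 1287 in NRP-1 replicate 3. It rose by 1.18 (SE 0.13, adjusted p = 2.35e-17) in replicate 2 and 2.60 (SE 0.12, adjusted p = 1.16e-103) in replicate 3, second to PLK1 in replicate 3. UBE2C, the ubiquitin-conjugating enzyme that starts APC/C chains, had 213 and 310 reads in the controls, 458 in NRP-1 replicate 2 and 1000 in NRP-1 replicate 3, and rose by 0.75 and 1.88. PTTG1 (securin), which holds separase in check, rose by 0.66 (adjusted p = 0.0031) and 1.52 (adjusted p = 1.12e-16), and its close copy PTTG2 had 0 reads. ESPL1, separase itself, had 268 and 329 reads in the controls, 360 in NRP-1 replicate 2 and 853 in NRP-1 replicate 3, and reached 0.21 (adjusted p = 0.25) in replicate 2 and 1.45 (adjusted p = 7.58e-31) in replicate 3.

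Among the genes used as markers of dividing cells, MKI67, the Ki-67 antigen, had 350 and 438 reads in the controls, 608 in NRP-1 replicate 2 and 1466 in NRP-1 replicate 3, and rose by 0.57 (SE 0.12, adjusted p = 1.17e-05) in replicate 2 and 1.84 (SE 0.10, adjusted p = 3.33e-65) in replicate 3. TOP2A, the topoisomerase that untangles sister chromosomes, had 997 and 1165 reads in the controls, 1401 in NRP-1 replicate 2 and 3228 in NRP-1 replicate 3, and rose by 0.32 (adjusted p = 0.00864) and 1.52 (adjusted p = 5.83e-55). Both lay above the controls in each NRP-1 library, with the same order as most of the set.

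Per length, the level of the set followed the read counts. The median over the 45 genes was 9.36 and 12.0 FPKM in the controls, 14.4 in NRP-1 replicate 2 and 31.9 in NRP-1 replicate 3, and the summed level went from 535 and 671 to 934 and 1973 FPKM. AURKA, UBE2C and CKS2 were also among the 4 most abundant in every library. CDK1, among the 4 most abundant in the other libraries, was not among the 5 most abundant in NRP-1 replicate 3, where CDC20 stood at 90.3 FPKM.

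Other genes of the cell cycle, from lists set by function, were set beside these 45. None of these lists held a gene called in the comparison of 2 against 2 libraries by edgeR. Genes at an unadjusted p under 0.05, in either direction, were counted in each list. They were 0 of 48 G1/S and replication genes, 18 of 26 other spindle and cytokinesis genes and 13 of 34 other centromere and kinetochore genes. The numbers were 6 of 18 condensin and cohesin genes, 5 of 18 APC/C genes and 5 of 22 MuvB, E2F and NF-Y genes. Of 16 mitotic entry brakes and exit phosphatase regulators there were 4, GTSE1 and CCNF higher and GADD45A and CDKN1A lower in NRP-1 cells. Over all genes the share at an unadjusted p under 0.05 was 22.9%, so the last 3 lists, at 27.8%, 22.7% and 25%, lay near it. The G1/S and DNA replication genes went the other way in replicate 2: 24 of 48 (50%) were called lower, against 15.1% of all genes, and 1, CCND1, higher, against 13.9%. Their median on the log2 scale was -0.35, and 39 of 48 (81.2%) lay below both controls, against 42.1% of all genes. In replicate 3, 41 of 48 (85.4%) were called higher, against 19.7%, and 0 lower, against 18.6%, with a median of 0.81. MCM5, a subunit of the replicative helicase, had 270 and 360 reads in the controls, 206 in NRP-1 replicate 2 and 811 in NRP-1 replicate 3, with log2 fold changes of -0.67 (SE 0.15, adjusted p = 9.71e-05) in replicate 2 and 1.30 (SE 0.12, adjusted p = 6.83e-24) in replicate 3. PRIM1, the catalytic primase subunit, had 223 and 177 reads in the controls, 75 in NRP-1 replicate 2 and 185 in NRP-1 replicate 3, and fell in replicate 2 (-1.47, adjusted p = 1.94e-09) with -0.17 (adjusted p = 0.518) in replicate 3. UHRF1 and CDC25A, the most raised of this list in replicate 3 at 1.48 and 1.42, gave -0.07 and 0.08 in replicate 2 (adjusted p = 0.777 and 0.821).

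The other mitotic lists had medians between these 2 sets in replicate 2, and their counts read against the same 13.9% higher and 15.1% lower in replicate 2 and 19.7% and 18.6% in replicate 3. Of 26 other spindle and cytokinesis genes, 17 (65.4%) were called higher in replicate 2 and 25 (96.2%) in replicate 3, with 0 lower and medians of 0.40 and 1.55. FAM83D, a spindle protein, had 64 and 59 reads in the controls, 141 in NRP-1 replicate 2 and 277 in NRP-1 replicate 3, and CEP55, which acts at the final cut between daughter cells, had 133 and 157 reads in the controls, 241 in NRP-1 replicate 2 and 600 in NRP-1 replicate 3. Of 34 other centromere and kinetochore genes, 4 (11.8%) were called higher and 6 (17.6%) lower in replicate 2, both near the share over all genes, with a median of 0.07. In replicate 3, 24 (70.6%) were higher and 1 (2.94%), MIS12, lower, with a median of 0.77. KNL1 rose by 0.67 and 1.92, while CENPW gave 0.39 (adjusted p = 0.454) in replicate 2 and rose by 2.04 in replicate 3. Of 18 condensin and cohesin genes, 4 (22.2%) and 17 (94.4%) were called higher (medians 0.12 and 1.14), among them SMC4, a condensin subunit, with 1020 and 1197 reads in the controls, 1781 in NRP-1 replicate 2 and 3268 in NRP-1 replicate 3. Of 18 APC/C subunits and regulators, 5 (27.8%) and 11 (61.1%) were called higher (medians 0.05 and 0.44), with UBE2S, which extends APC/C chains, rising by 0.54 and 1.44.

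Of 16 mitotic entry brakes and exit phosphatase regulators, 2 (12.5%) were called higher and 4 (25%) lower in replicate 2, against 13.9% and 15.1% of all genes, with a median of 0.03. In replicate 3, 7 (43.8%) were higher and 3 (18.8%) lower, against 19.7% and 18.6%, with a median of 0.27. GADD45A, a stress-induced inhibitor of CDK1, had 420 and 452 reads in the controls, 237 in NRP-1 replicate 2 and 132 in NRP-1 replicate 3, and both NRP-1 libraries lay below both controls with log2 fold changes of -0.94 (SE 0.15, adjusted p = 2.53e-08) in replicate 2 and -1.78 (SE 0.17, adjusted p = 6.52e-24) in replicate 3. CDKN1A, the p21 inhibitor of CDKs, had 490 and 561 reads in the controls, 428 in NRP-1 replicate 2 and 360 in NRP-1 replicate 3, and fell in both libraries (-0.35, adjusted p = 0.0226, and -0.61, adjusted p = 2.56e-05). GTSE1, which restrains p53 in G2, and CCNF, cyclin F, rose in replicate 2 by 0.91 and 0.61 and in replicate 3 by 2.18 and 1.46. Of 22 MuvB, E2F and NF-Y genes, 2 (9.09%) were called higher and 4 (18.2%) lower in replicate 2, near the shares over all genes, with a median of 0.03. In replicate 3, 11 (50%) were higher and 1 (4.55%) lower, with a median of 0.41. MYBL2, which encodes B-MYB, had 405 and 468 reads in the controls, 342 in NRP-1 replicate 2 and 1065 in NRP-1 replicate 3, with log2 fold changes of -0.41 (SE 0.13, adjusted p = 0.00738) in replicate 2 and 1.23 (SE 0.11, adjusted p = 7.46e-27) in replicate 3. RBL2, the p130 repressor of the DREAM complex, had 1133 and 1127 reads in the controls, 857 in NRP-1 replicate 2 and 588 in NRP-1 replicate 3, and fell in both libraries (adjusted p = 1.25e-04 and 3.63e-18).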

How the data were processed

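Total RNA of 4 BT-474 libraries was enriched for polyadenylated RNA, primed with random hexamers and sequenced on an Illumina HiSeq instrument. The authors mapped clean reads with HISAT and Bowtie2, and the submitters' processing notes also name RSEM and the builds GRCh38 and hg19, without roles. The authors deposited an expected count per gene (estimated, 32.4% to 32.9% of values not whole) and FPKM values per library. A gene not listed in a library was taken as 0. The deposited table of the authors' own comparison (group means, log2 ratios and a probability) was not used.

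Of 18882 gene IDs, 99.4% matched a RefSeq symbol. Counts rounded to whole numbers entered the quasi-likelihood test of edgeR 4.0.16, run in R 4.3.3 (TMM, factors 0.986 to 1.014; filterByExpr; glmQLFit and glmQLFTest), with Benjamini-Hochberg adjustment over 14298 genes and a threshold of 0.05. The comparison of groups had 2 residual degrees of freedom, and the fit with each NRP-1 library as a level of its own had 1. CPM are TMM-scaled. Alternatives were DESeq2 1.42.0, limma 3.58.1 on log-transformed FPKM (pseudocounts of 1 and 0.1, mean FPKM 0.5 or more), no TMM, no filter, a threshold of 0.001 with a log2 fold change of 2 or more in size, summing near-identical copies, leaving out GAS2L3, and leaving out each library. The tests were also run on simulated counts in which every library varied equally. The coefficient of variation here was 0.225 in the NRP-1 pair and 0.064 in the controls. The simulation therefore cannot show how the tests perform on these data. Replicates differed beyond sampling noise and were all kept. A standard error is the absolute log2 fold change over the square root of the F statistic.

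The genes, lists and promoter letters were chosen with earlier results of these data known. Named genes are all 45, NRP1, and, in each other list, genes by a rule on the highest and lowest log2 fold changes. CCND1 was named after its values were seen. Promoter windows came from RefSeq (GRCh38.p14), which need not be the build of the counts. Protein motifs were not analysed here.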

Additional observations from a re-analysis of the deposited data

How the results depend on the processing

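For NRP-1 against control cells, edgeR called 0 of 45 genes and DESeq2 32. With each library left out, the median log2 fold change of 1.22 ranged from 0.62 to 1.70. Without NRP-1 replicate 3 it was 0.62, and CDC25C, AURKB and CENPA reversed to -0.14, -0.25 and -0.34. Without NRP-1 replicate 2 these 3 genes stood at 1.23, 1.49 and 0.94. For NRP-1 replicate 2 the 31 calls became 11 under DESeq2, and 0 with no filter on low counts, under both limma fits and at the stricter threshold. For NRP-1 replicate 3 the 45 calls became 0 under both limma fits and 9 at the stricter threshold, and DESeq2 gave 42 and no filter 40. For replicate 3 against replicate 2 the 44 calls became 26 under DESeq2, and 0 with no filter, under both limma fits and at the stricter threshold. The stricter threshold asks for a log2 fold change of 2 or more. The largest values were 1.92 in replicate 2 and 1.76 for replicate 3 against replicate 2, so no gene could pass it there. The fits for single NRP-1 libraries leave 1 residual degree of freedom, and the cause of the calls lost under the other alternatives was not tested. The share of all genes called under these alternatives was not counted, so the numbers have no background beside them. The medians moved less: with a control left out they ranged from 0.46 to 0.76 in replicate 2 and from 1.62 to 1.92 in replicate 3. The NRP1 log2 fold change of 3.38 lost its call with no filter (3.38, adjusted p = 0.106), under limma (1.28 and 2.87), and without either control (3.30 and 3.47), and ranged from 2.95 to 3.70 with each library left out. Library sizes without TMM and leaving out GAS2L3 changed no count by more than 1.5 times. The calls were not recounted with the summed copies of KIF4A and PTTG1. Of those copies, KIF4B had 0.82 reads in control replicate 1 and 0 elsewhere, and PTTG2 had 0. No paired analysis was possible because the groups share only replicate number 2.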
